A study of Rattus norvegicus with 8 samples.

Results

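The LDL receptor family is a group of membrane receptors that share ligand-binding cysteine-rich repeats. It was followed here as 9 genes: Lrp1, Lrp4, Lrp5, Lrp6, Lrp8, Lrp10, Lrp12, Vldlr and Sorl1. The members were chosen by name, on the FeCl3 and saline FPKM values of these same libraries, and were taken from the deposited table, and all 9 of 9 were found among its 18090 genes. Their differences between the groups are therefore given as a description. The samples were abdominal aortas of wild-type rats, profiled by polyA RNA-seq. In 4 samples a filter paper with 10% FeCl3, ferric chloride, which damages an artery from outside and is used to provoke clotting, lay around the vessel for 5 min, and in 4 controls the paper carried 0.9% saline for the same time. The series describes the samples of a condition as biologically independent. Strain, age, sex and the interval before harvest are not given in the sources used here.

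Receptors of this family bind ligands outside the cell and carry them inward through short motifs in their cytoplasmic tails. Lrp1 is a large endocytic receptor that clears remnant lipoproteins and complexes of proteases with their inhibitors, and in vascular smooth muscle of mice it restrains signalling of the PDGF receptor. Vldlr and Lrp8 bind reelin and lipoproteins rich in apolipoprotein E, Lrp5 and Lrp6 are co-receptors for Wnt ligands, and Lrp4 is the receptor for agrin at the nerve-muscle junction. Sorl1 joins the LDL receptor repeats to a VPS10 domain and sorts cargo inside the cell.

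Values were FPKM, which divide a gene's fragments by its length and by the size of the library, so that levels of different genes can be set side by side. The smallest library had 24304434 and the largest 30283292 fragments, as read back from the FPKM steps. Haemoglobin genes took 16.4% to 34.1% of these fragments after FeCl3 and 1.30% to 16.5% after saline, and saline replicate 4 with 16.5% stood apart from the other controls. Saline replicate 1 also stood apart, with 4.58 FPKM of the endothelial gene Pecam1 against 54.2 to 85.9 FPKM in the other controls. The smooth muscle genes Acta2 and Myh11 averaged 3014 and 388 FPKM after FeCl3, and 5580 and 746 FPKM after saline. In whole vessel RNA, fewer cells of a type and less RNA per cell cannot be told apart.

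All 9 receptors together summed to 82.4, 97.7, 87.9 and 111 FPKM in FeCl3 replicates 1 to 4, and to 186, 168, 172 and 157 FPKM in saline replicates 1 to 4. The sums of the groups did not overlap. The 8 members that could be tested, those with at least 1 FPKM in at least 4 libraries, all had a log2 fold change below 0, where 70.2% of all 11921 genes tested lay below 0. Their median was -0.67, and that of all genes tested was -0.25. In limma with Benjamini-Hochberg adjustment 0 of the 8 passed the threshold of 0.05, as did 0 of all genes tested (0%). The smallest limma adjusted p of any gene was 0.245. It was shared by 486 genes, so this value does not rank the genes that have it. Before adjustment 3 members, Lrp1, Lrp6 and Sorl1, had p under 0.05, against 16.6% of all genes (1981 genes). With limma voom on recovered fragments, 0 genes passed the adjusted threshold and 2075 were under 0.05 unadjusted. The same 3 members had FeCl3 and saline values that did not overlap, all lower after FeCl3, which held for 8.75% of all genes tested. With FPKM rescaled to TPM, 6 of the 8 members passed as lower (all but Lrp4 and Lrp12), as did 27% of all genes tested. Without saline replicate 4, 0 of the 8 passed and 1.34% of all genes tested did.

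**Figure D1:**
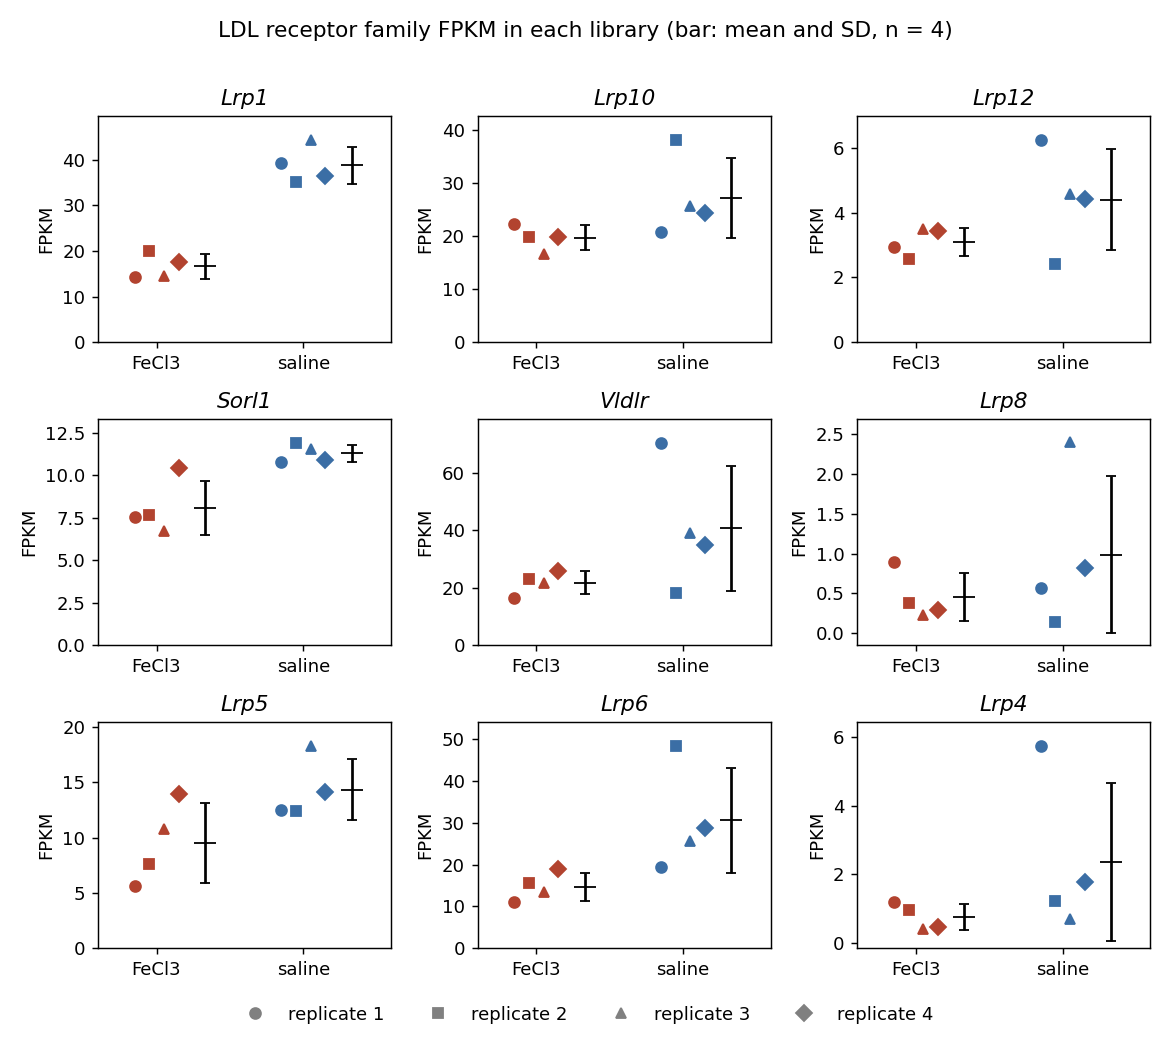
FPKM of each of the 9 receptors (vertical axes, linear, in FPKM) in the 4 FeCl3 libraries (red, left) and the 4 saline libraries (blue, right); marker shapes are replicate numbers and the black bar is the mean with its SD (n = 4). Lrp1 lay between 14.4 and 20.0 FPKM after FeCl3 and between 35.1 and 44.3 FPKM after saline, while Vldlr, Lrp10 and Lrp12 overlapped.

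Lrp1 had 14.4, 20.0, 14.4 and 17.7 FPKM in FeCl3 replicates 1 to 4, and 39.4, 35.1, 44.3 and 36.5 FPKM in saline replicates 1 to 4. Every FeCl3 library was below every saline library, and the gap between the groups was wider than the spread within either. The means were 16.6 ± 2.74 FPKM after FeCl3 and 38.8 ± 4.06 FPKM after saline (SD, n = 4 each), and the FeCl3 mean was 42.9% of the saline mean. On the log2 scale the difference was -1.18 ± 0.20 SE, with a 95% interval of -1.63 to -0.73 (adjusted p = 0.245 in limma). In the order of fold changes, most negative first, Lrp1 was number 244 of 11921. The values rested on 5502 to 19678 fragments per library.

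The groups of Lrp1 did not overlap on any of the 4 scales compared: FPKM, TPM, median-of-ratios and FPKM without haemoglobin in the total. With haemoglobin genes left out of the library total it measured 19.1, 24.0, 21.9 and 22.1 FPKM after FeCl3, and 40.1, 35.6, 45.0 and 43.7 FPKM after saline. On that scale Lrp1 was the only one of the 8 members whose groups did not overlap, and 2.64% of all genes tested were lower without overlap. With median-of-ratios scaling Lrp1 and Lrp6 did not overlap (3.46% of all genes), and with FPKM rescaled to TPM all 8 members did not (33.3% of all genes). Lrp1 made up 15.9% to 20.5% of the summed FPKM of the 9 receptors after FeCl3 and 20.9% to 25.7% after saline. Library scaling does not touch this share. The share of Sorl1 was higher after FeCl3 without overlap, at 7.63% to 9.39% against 5.82% to 7.09% after saline. The shares of the remaining members overlapped. Because the shares add up to a fixed total, a lower share of one member raises those of others. Its intracellular chaperone Lrpap1, which shields the receptor from early ligand binding, overlapped between the groups (log2 fold change -0.41), and Lrp1 stood at 0.400 to 0.716 of the Lrpap1 FPKM after FeCl3 and at 0.677 to 1.41 after saline. Set against genes of the vessel wall, Lrp1 gave ratios that overlapped between the groups. Its ratio to Acta2 was 0.00339 to 0.0110 after FeCl3 and 0.00379 to 0.0196 after saline. Per 100 FPKM of the matrix gene Fn1 it had 7.74 to 29.8 FPKM after FeCl3 and 6.38 to 45.6 FPKM after saline. Among the controls alone Acta2 ran from 1790 to 10404 FPKM and Fn1 from 77.0 to 617 FPKM, against 35.1 to 44.3 FPKM for Lrp1. With denominators this variable, the overlap cannot tell whether Lrp1 differed relative to the wall. The share of all genes with overlapping ratios was not counted.

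FeCl3 replicate 2 and saline replicate 4 had nearly the same haemoglobin share, 16.4% and 16.5% of fragments. Between these libraries Lrp1 measured 20.0 FPKM after FeCl3 and 36.5 FPKM after saline, a ratio of 0.549. All 9 receptors were lower in FeCl3 replicate 2 than in saline replicate 4, as were 63.8% of all genes tested. The ratios ran from 0.459 for Lrp8 and 0.540 for Lrp4 to 0.816 for Lrp10. The pair was close in haemoglobin share but not in all other cell markers. Adipocyte markers summed to 10386 FPKM in FeCl3 replicate 2 and to 1634 FPKM in saline replicate 4. In the same order, Schwann cell and nerve markers summed to 11.98 and 1071 FPKM, and smooth muscle markers to 6877 and 9577 FPKM. Fibroblast markers were closer, at 2987 and 2331 FPKM. The part of these differences in the ratios was not tested, and a single pair of libraries gives no replicate check.

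Most members have long transcripts, and longer genes had lower fold changes in these libraries. By the gene lengths recovered from the FPKM steps Lrp1 spans 14796 bases, longer than 98.7% of the genes tested, Sorl1 11991, Lrp6 8945 and Lrp10 3159 bases. Of the 8 members tested, 5 belonged to the longest quartile of genes, which began at 4906 bases. The median log2 fold change was -0.46 in that quartile and 0.04 in the shortest one. Genes with a log2 fold change below 0 made up 87.6% of the longest quartile and 46.6% of the shortest. They made up 76.7% of the next longest quartile, which held Lrp10, Lrp12 and Vldlr. In the longest quartile 18.2% of genes were lower without overlap, against 2.11% in the shortest. Lrp1 at -1.18 and Lrp6 at -0.95 lay below the quartile's median, and Sorl1 at -0.45 was close to it. The part of transcript length in the members' differences was not tested.

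**Figure D2:**
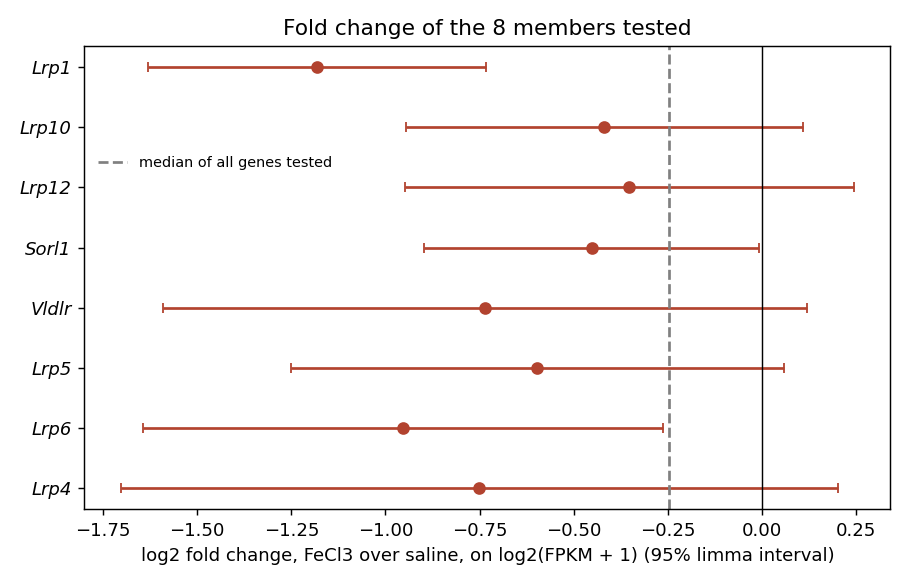
Log2 fold change of the 8 members tested, FeCl3 over saline on the log2(FPKM + 1) scale (horizontal axis), with the 95% limma interval; the dashed line is the median of all genes tested (-0.25) and the solid line is 0. The intervals of Lrp1, Lrp6 and Sorl1 lay below 0, and 0 of the 8 members passed after adjustment over all genes.

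The stretch around the transcription start of Lrp1 is shown because this gene had the widest separation of the groups, beside those of Sorl1, whose saline values were closest together, and Vldlr, the member with the highest mean. The sequences are from RefSeq on build GRCr8, where 4 of the 9 members were matched (Lrp1, Lrp10, Vldlr and Sorl1), each with 250 bases before and 50 bases after the start, on chr7:65346147-65346446 (minus strand) for Lrp1, chr8:51401198-51401497 (minus strand) for Sorl1 and chr1:234240436-234240735 (plus strand) for Vldlr. Capitals mark a GC box (GGGCGG or its complement CCGCCC, the letters bound by Sp1-type factors) or the E-box CACGTG, searched on both strands with no overlap between the motifs.
Lrp1: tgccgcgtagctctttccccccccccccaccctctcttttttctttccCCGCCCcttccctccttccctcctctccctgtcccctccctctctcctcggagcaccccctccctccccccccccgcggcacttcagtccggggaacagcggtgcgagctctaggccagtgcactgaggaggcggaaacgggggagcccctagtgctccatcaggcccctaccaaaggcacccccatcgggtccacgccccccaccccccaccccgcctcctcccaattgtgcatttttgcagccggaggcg
Sorl1: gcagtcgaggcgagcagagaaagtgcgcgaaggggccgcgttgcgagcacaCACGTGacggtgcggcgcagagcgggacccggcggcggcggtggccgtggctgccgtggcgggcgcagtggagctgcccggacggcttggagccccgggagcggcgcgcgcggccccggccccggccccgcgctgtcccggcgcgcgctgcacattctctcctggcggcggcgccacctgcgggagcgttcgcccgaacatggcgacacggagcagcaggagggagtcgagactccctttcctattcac
Vldlr: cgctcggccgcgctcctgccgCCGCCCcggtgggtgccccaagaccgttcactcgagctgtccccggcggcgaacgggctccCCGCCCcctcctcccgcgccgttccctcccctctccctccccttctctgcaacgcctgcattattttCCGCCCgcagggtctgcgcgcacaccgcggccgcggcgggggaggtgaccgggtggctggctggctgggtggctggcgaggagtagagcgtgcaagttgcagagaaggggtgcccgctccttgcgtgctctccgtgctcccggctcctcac

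The Lrp1 window held 1 GC box, the Vldlr window 3, and those of Sorl1 and Lrp10 held 0. The E-box occurred once, in Sorl1. Among all 33469 promoter windows of this length 33.1% held a GC box and 6.42% this E-box. The G and C content was 68.3% for Lrp1, 73% for Vldlr and 75% for Sorl1, where the median of all windows was 51.7%. The matches describe letters only: Lrp1 with a GC box and Sorl1 without one had groups that did not overlap, and Vldlr with 3 and Lrp10 with 0 had groups that did.

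Lrp6, a Wnt co-receptor, had the next most negative log2 fold change of the members after Lrp1. It had 10.98, 15.6, 13.4 and 18.9 FPKM in FeCl3 replicates 1 to 4, and 19.5, 48.3, 25.6 and 28.9 FPKM in saline replicates 1 to 4. The groups did not overlap, but FeCl3 replicate 4 and saline replicate 1 lay close together and saline replicate 2 was far above the other controls. The log2 fold change was -0.95 ± 0.30 SE (adjusted p = 0.248 in limma), and it was -0.71 without saline replicate 2 and -1.14 without saline replicate 1.

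Lrp5, the partner co-receptor, had 5.62, 7.65, 10.8 and 13.9 FPKM in FeCl3 replicates 1 to 4, and 12.5, 12.4, 18.3 and 14.2 FPKM in saline replicates 1 to 4. FeCl3 replicate 4 reached the saline range and the other FeCl3 libraries were below it. The log2 fold change was -0.60 ± 0.29 SE (adjusted p = 0.324 in limma, 95% interval -1.25 to 0.06). Lrp6 was above Lrp5 in all 8 libraries, with an Lrp6 to Lrp5 ratio of FPKM of 1.24 to 2.04 after FeCl3 and of 1.40 to 3.89 after saline. These ratios overlapped.

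Lrp4, which binds agrin and can also hold back Wnt signalling, was low. It had 1.19, 0.957, 0.404 and 0.465 FPKM in FeCl3 replicates 1 to 4, and 5.75, 1.23, 0.697 and 1.77 FPKM in saline replicates 1 to 4. Saline replicate 1 was far above all other libraries. For Lrp4 the log2 fold change was -0.75 ± 0.42 SE (adjusted p = 0.381 in limma), and it was -0.34 without that library. Low values shrink on this scale, and with a pseudocount of 0.1 it was -1.22. Lrp4 rested on 81 to 1355 fragments.

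Vldlr, which takes up triglyceride-rich lipoproteins and binds reelin, had the highest mean of the family in both groups, but among the controls it was above Lrp1 in 1 of 4 libraries, saline replicate 1. It measured 16.5, 22.9, 21.8 and 25.9 FPKM in FeCl3 replicates 1 to 4, and 70.3, 18.3, 39.1 and 34.8 FPKM in saline replicates 1 to 4. The FeCl3 libraries were close to each other, whereas the controls spanned a 3.84-fold range and saline replicate 2 lay among the FeCl3 values. The log2 fold change was -0.74 ± 0.38 SE (adjusted p = 0.347 in limma). It was -1.05 when saline replicate 2 was left out and -0.43 when saline replicate 1 was.

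Lrp8, the apolipoprotein E receptor 2, which acts with Vldlr in reelin signalling and is also found on platelets, was below the filter on low values and was not tested. It had 0.895, 0.374, 0.233 and 0.297 FPKM in FeCl3 replicates 1 to 4, and 0.574, 0.144, 2.40 and 0.815 FPKM in saline replicates 1 to 4. These values stood on 28 to 577 fragments and all FeCl3 values lay within the saline range. Platelet markers, 6 of 7 in the table, summed to 985 to 2556 FPKM after FeCl3 and to 20.0 to 1689 FPKM after saline.

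Sorl1, the sorting receptor, had the narrowest range of the 9 members among the controls. It had 7.55, 7.65, 6.71 and 10.4 FPKM in FeCl3 replicates 1 to 4, and 10.8, 11.9, 11.6 and 10.9 FPKM in saline replicates 1 to 4. The saline libraries lay close together, and FeCl3 replicate 4 came near the lowest control. The log2 fold change was -0.45 ± 0.20 SE (adjusted p = 0.299 in limma). Without haemoglobin genes in the total the groups overlapped, with 9.16 to 13.0 FPKM after FeCl3 and 10.985 to 13.1 FPKM after saline. As a share of the family's summed FPKM, Sorl1 was higher after FeCl3, at 7.63% to 9.39% against 5.82% to 7.09% after saline.

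Lrp10, a receptor that cycles between the Golgi and endosomes, had 22.4, 19.9, 16.7 and 19.9 FPKM in FeCl3 replicates 1 to 4, and 20.8, 38.1, 25.7 and 24.4 FPKM in saline replicates 1 to 4. Its log2 fold change of -0.42 ± 0.23 SE (adjusted p = 0.379 in limma) had an interval that included 0. Lrp12, a distant member of the family, had 2.93, 2.57, 3.48 and 3.44 FPKM in FeCl3 replicates 1 to 4, and 6.23, 2.40, 4.57 and 4.42 FPKM in saline replicates 1 to 4. Its log2 fold change was -0.35 ± 0.26 SE (adjusted p = 0.497 in limma). Both genes overlapped between the groups, and saline replicate 2 was the highest control for Lrp10 and the lowest for Lrp12.

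The order of mean levels after FeCl3 was Vldlr (21.8 ± 3.91 FPKM), Lrp10 (19.7 ± 2.33), Lrp1 (16.6 ± 2.74), Lrp6 (14.7 ± 3.35), Lrp5 (9.50 ± 3.65), Sorl1 (8.08 ± 1.61), Lrp12 (3.11 ± 0.43), Lrp4 (0.754 ± 0.38) and Lrp8 (0.450 ± 0.30; SD, n = 4). Neighbours from Vldlr to Sorl1 overlapped in their ranges, and clear steps stood between Sorl1 and Lrp12 and between Lrp12 and Lrp4. After saline the order was Vldlr (40.6 ± 21.7 FPKM), Lrp1 (38.8 ± 4.06), Lrp6 (30.6 ± 12.5), Lrp10 (27.2 ± 7.53), Lrp5 (14.3 ± 2.76), Sorl1 (11.3 ± 0.52), Lrp12 (4.41 ± 1.57), Lrp4 (2.36 ± 2.30) and Lrp8 (0.983 ± 0.98; SD, n = 4). There the first 4 overlapped as neighbours, and steps without overlap followed Lrp10, Lrp5 and Sorl1. By these means Lrp10 stood above Lrp1 after FeCl3 and below it after saline, but 1 library in each group had the reverse order. In FeCl3 replicate 2 Lrp1 had 20.0 and Lrp10 19.9 FPKM, and in saline replicate 2 Lrp1 had 35.1 and Lrp10 38.1 FPKM. The ratios of Lrp1 to Lrp10 overlapped between the groups.

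Members differed in how they varied among the controls. Smooth muscle markers (Acta2, Myh11, Tagln, Cnn1, Smtn and Myocd) summed to 3685 to 10602 FPKM after FeCl3 and to 4739 to 25398 FPKM after saline, lowest in saline replicate 2 and highest in saline replicate 1. Over the 4 saline libraries Vldlr and Lrp12 followed the same order as this sum, and Lrp6 followed the opposite order. In FeCl3 libraries 0 members followed the same order, and Lrp4 and Lrp8 the opposite one. Lrp1 followed neither order in either group. An order over 4 libraries is weak evidence, and the share of all genes tested that followed these orders was not counted. Across the 8 libraries the Pearson correlation of log2(FPKM + 1) was 0.94 between Vldlr and Lrp12, 0.85 between Lrp6 and Lrp10 and between Lrp1 and Sorl1, and -0.15 between Vldlr and Lrp10. These correlations include the difference between the groups.

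**Figure D3:**
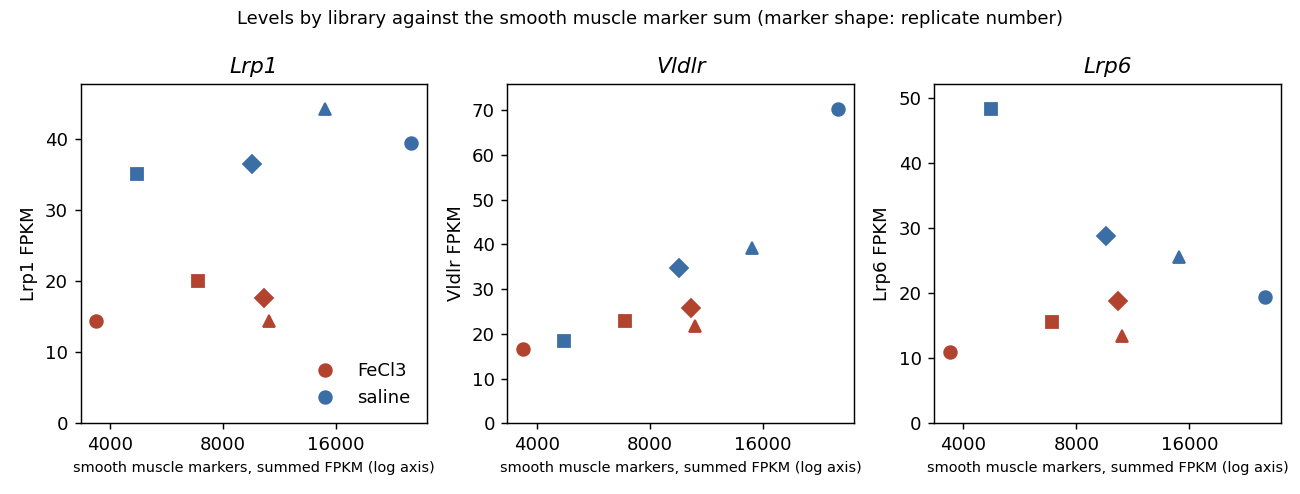
FPKM of Lrp1, Vldlr and Lrp6 (vertical axes, linear) against the summed FPKM of 6 smooth muscle markers (horizontal axes, log scale) in the 4 FeCl3 libraries (red) and the 4 saline libraries (blue); marker shapes are replicate numbers. Lrp1 was 14.4 to 20.0 FPKM in the FeCl3 libraries and 35.1 to 44.3 FPKM in the saline libraries; Vldlr went with the sum among the controls and Lrp6 against it.

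Markers of other cells differed in level between libraries. Red cell markers (7 genes) summed to 207341 to 418063 FPKM after FeCl3 and to 16428 to 202747 FPKM after saline. T and NK cell markers summed to 24.8 to 321 FPKM after FeCl3 and to 0.151 to 32.9 FPKM after saline, where Cd3d, Cd3e, Cd2 and Nkg7 were at 0 in at least 1 library. B cell markers ran from 25.1 to 97.2 FPKM after FeCl3 and from 0.0273 to 55.0 FPKM after saline, and neutrophil markers from 56.7 to 121 FPKM after FeCl3 and from 0.338 to 89.5 FPKM after saline. Macrophages carry Lrp1, and their 6 markers summed to 15.2 to 148 FPKM after FeCl3 and to 1.39 to 76.1 FPKM after saline, ranges that overlap. Fibroblasts also carry it, and their 6 markers overlapped, with 580 to 2987 FPKM after FeCl3 and 446 to 2331 FPKM after saline.

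Endothelial markers ranged from 142 to 197 FPKM after FeCl3 and from 7.32 to 230 FPKM after saline. Adipocyte markers ranged from 420 to 10386 FPKM after FeCl3 and from 1.80 to 14238 FPKM after saline, Schwann cell and nerve markers from 11.98 to 580 FPKM after FeCl3 and from 172 to 1071 FPKM after saline, and skeletal muscle markers from 15.8 to 50.4 FPKM after FeCl3 and from 18.2 to 33.7 FPKM after saline. Mesothelial markers reached 2.98 FPKM after FeCl3 and 210 FPKM after saline, in saline replicate 2, the library with the highest Lrp6 and Lrp10. Saline replicate 2 also had the highest adipocyte and endothelial marker sums of all libraries, and the lowest smooth muscle sum of the controls. The part of cell makeup in the members' differences was not tested.

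The genes whose pattern over the 8 libraries was most like that of Lrp1, by the Pearson correlation of log2(FPKM + 1), were LOC102551819 (r = 0.98), Nbas (0.97), Srpra (0.96), Dock1 (0.96) and Nfia (0.96). Dock1, an activator of the small GTPase Rac, averaged 4.79 ± 0.36 FPKM after FeCl3 and 10.7 ± 0.81 FPKM after saline (SD, n = 4 each). Nfia, a transcription factor, averaged 5.70 ± 0.49 FPKM after FeCl3 and 9.74 ± 0.48 FPKM after saline (SD, n = 4 each). Lrp1 itself differed between the groups, so lower means after FeCl3 followed from choosing genes like it and are no separate result. For the other members the nearest genes were Adam17 for Lrp5 (r = 0.99), Zscan21 for Lrp6 (0.98), Plagl1 for Lrp4 (0.98), Iars2 for Lrp10 (0.99), Dtna for Lrp12 (0.98), Zeb1 for Vldlr (0.99) and Thrap3 for Sorl1 (0.99). Adam17 is a sheddase and also one of the listed cleavage genes.

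**Figure D4:**
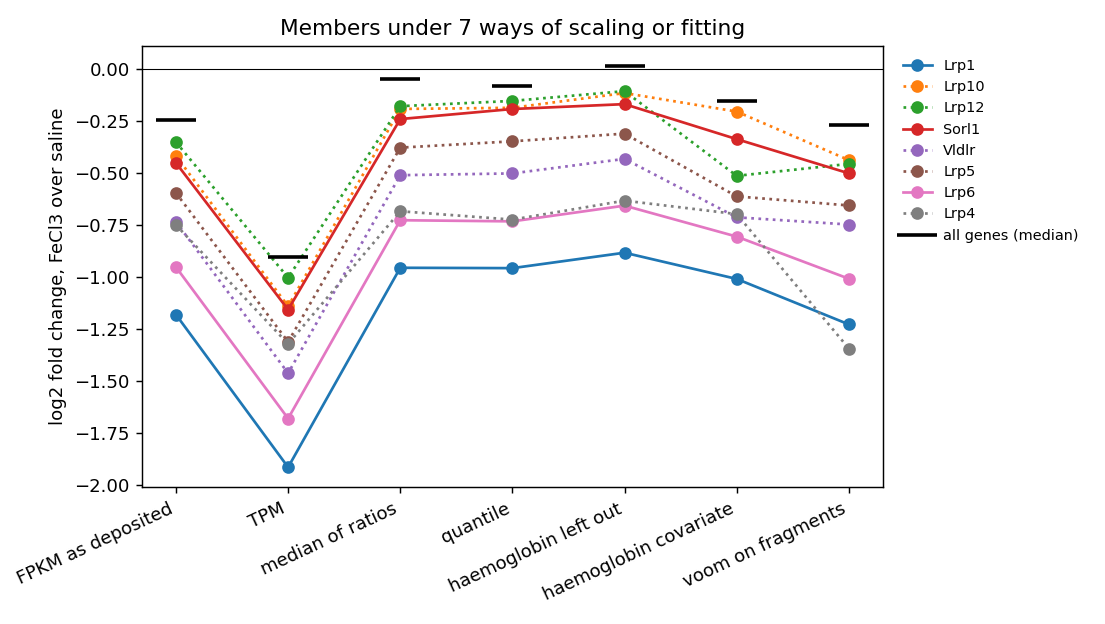
Log2 fold change, FeCl3 over saline (vertical axis), of the 8 members tested under 7 scalings or fits (horizontal axis), with black bars for the median of all genes tested. All 8 members lay below 0 and below that median in each; Lrp1 ran from -1.92 with TPM to -0.88 with haemoglobin genes left out of the total.

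Other genes of the family and its pathways were followed from lists, and 0 of their tested members passed the limma threshold. Of 7 other family genes, 6 were in the table and 4 were tested, all 4 with a negative fold change and a median of -0.73. Lrp11, Ldlrad3, Ldlrad4 and Lrp3 had log2 fold changes of -0.79, -0.74, -0.73 and -0.24 and overlapped between the groups. Both others were below the filter: Lrp1b had 0.0120 to 0.165 FPKM after FeCl3 and 0.0341 to 0.944 FPKM after saline, and Lrp2 had 0.0189 to 0.542 FPKM after FeCl3 and 0.00214 to 0.0692 FPKM after saline.

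Chaperones, tail adaptors and turnover factors of the receptors had a median of -0.26, close to that of all genes, with 13 of 16 tested genes negative (70.2% of all genes tested) and 0 lower without overlap (8.75%). Vps35, a retromer subunit and the most abundant of them, averaged 45.6 ± 6.62 FPKM after FeCl3 and 52.0 ± 6.06 FPKM after saline (SD, n = 4 each). The extremes were Apbb1, a binder of the amyloid precursor protein and of receptor tails, at -0.80, and Gga2, a Golgi adaptor, at 0.23. Genes that cleave the receptors had a median of -0.41 with 7 of 10 negative, near the 70.2% of all genes tested. Both beta-secretases, Bace1 and Bace2, were lower without overlap (2 of 10 genes, against 8.75% of all genes tested). Bace1 averaged 5.45 ± 1.44 FPKM after FeCl3 and 13.4 ± 5.16 FPKM after saline (SD, n = 4 each; difference on the log2 scale -1.12 ± 0.30 SE, adjusted p = 0.245 in limma). Psenen, a gamma-secretase subunit, was the most abundant and the most positive of this list at 0.49, with 119 ± 10.0 FPKM after FeCl3 and 88.2 ± 28.7 FPKM after saline (SD, n = 4 each).

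Ligands and partners of Lrp1 had a median of -0.27, with 17 of 22 tested genes negative (70.2% of all genes tested) and 0 lower without overlap (8.75%). Hspg2, which encodes perlecan, a matrix proteoglycan, was the lowest, with 47.9 ± 17.9 FPKM after FeCl3 and 130 ± 55.1 FPKM after saline (SD, n = 4 each; difference on the log2 scale -1.38 ± 0.41 SE, adjusted p = 0.245 in limma). Lpl, lipoprotein lipase of fat and muscle, had the highest log2 fold change, 1.49 ± 2.04 SE, although its mean was lower after FeCl3 (307 FPKM) than after saline (454 FPKM). Its libraries ran from 14.98 to 619 FPKM after FeCl3 and from 0.490 to 1629 FPKM after saline, where adipocyte markers also spread widely. For Ccn2, a matricellular ligand and the most abundant of the list, FeCl3 over saline came to -0.11 ± 0.79 SE on the log2 scale (adjusted p = 0.952 in limma).

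The reelin arm shared by Vldlr and Lrp8 had a median of -0.70, with 6 of 9 tested genes negative (70.2% of all genes tested) and 1 lower without overlap (8.75%). Crk, an adaptor downstream of Dab1, was lower without overlap, with 23.6 ± 5.80 FPKM after FeCl3 and 44.6 ± 9.07 FPKM after saline (SD, n = 4 each; difference on the log2 scale -0.90 ± 0.24 SE, adjusted p = 0.245 in limma). Clu, a lipoprotein-associated ligand, had 411 ± 120 FPKM after FeCl3 and 348 ± 139 FPKM after saline (SD, n = 4 each), and Selenop, a selenium carrier bound by Lrp8, had a log2 fold change of 1.03 ± 0.71 SE. Both overlapped between the groups. Of the agrin arm of Lrp4, Agrn was lower without overlap, with 6.59 ± 1.02 FPKM after FeCl3 and 12.6 ± 3.34 FPKM after saline (SD, n = 4 each; difference on the log2 scale -0.82 ± 0.24 SE, adjusted p = 0.245 in limma), and Rapsn had -0.27.

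The Wnt arm of Lrp5 and Lrp6 had a median of -0.32, with 25 of 32 tested genes negative (70.2% of all genes tested) and 4 lower without overlap (8.75% of all genes tested), namely Ctnnb1, Gsk3a, Gsk3b and Dvl3. Ctnnb1, beta-catenin, averaged 66.0 ± 10.5 FPKM after FeCl3 and 90.6 ± 11.4 FPKM after saline (SD, n = 4 each; difference on the log2 scale -0.46 ± 0.21 SE, adjusted p = 0.310 in limma). Gsk3b and Dvl3, a kinase that marks beta-catenin for destruction and a scaffold that relays the Wnt signal, had log2 fold changes of -1.09 ± 0.27 SE and -0.97 ± 0.24 SE. Tcf7, a partner of beta-catenin that is also a T cell gene, was the highest at 1.82 ± 0.78 SE, with 32.8 FPKM in FeCl3 replicate 4, the library with 321 FPKM of T and NK cell markers. Sostdc1, a secreted Wnt inhibitor, was the lowest at -1.28 ± 1.29 SE and overlapped. Gsk3a, Gsk3b, Dvl3, Bace2 and Npc1 were named after their values were seen.

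Among the VPS10 receptors related to Sorl1, Sort1 was lower without overlap, with 28.8 ± 3.76 FPKM after FeCl3 and 48.2 ± 11.8 FPKM after saline (SD, n = 4 each; difference on the log2 scale -0.70 ± 0.23 SE, adjusted p = 0.251 in limma), and Sorcs2 had -0.54. The 18 sterol-regulated genes had a median of -0.41, with 12 negative and 1, the lysosomal cholesterol transporter Npc1, lower without overlap, shares below the 70.2% and 8.75% of all genes tested. Abcg1, a cholesterol exporter, was the highest at 1.07 ± 0.76 SE, Lss, lanosterol synthase, the lowest at -0.93 ± 0.61 SE, and Fdps, the most abundant, averaged 83.3 ± 39.1 FPKM after FeCl3 and 128 ± 90.0 FPKM after saline (SD, n = 4 each).

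**Figure D5:**
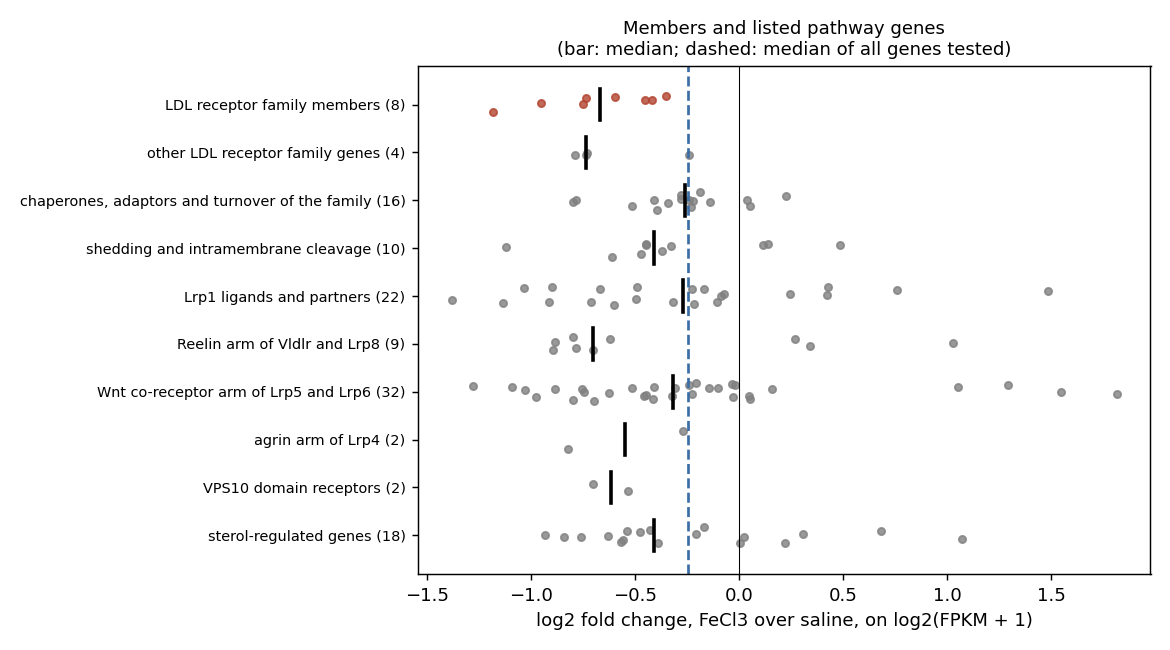
Each point is a tested gene at its log2 fold change (horizontal axis, FeCl3 over saline on the log2(FPKM + 1) scale) for the 8 members (red) and 9 lists of related genes (grey), with the number of genes tested in brackets; black bars are medians and the dashed line is the median of all genes tested. All 8 members lay below 0, whereas the Wnt list ran from -1.28 to 1.82.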

How the data were processed

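FPKM values, which the authors deposited as 1 table of genes by libraries, were the starting point. Tools in the submitters' processing notes are HISAT2, HTSeq and fastp, with build mRatBN7.2. Tool versions, annotation and strandedness are not given in the sources used here. Columns were matched to samples by title, with 0 value columns left unmapped. The sample labels used here name no batch, so batch was not examined. Genes with at least 1 FPKM in at least 4 of 8 libraries were fitted as log2(FPKM + 1) in limma 3.58.1 (R 4.3.3, two-sided moderated test, trended variance, Benjamini-Hochberg over all genes), FeCl3 against saline, a scale that understates changes of low genes. Whole fragments, totals and gene lengths were recovered from the FPKM steps (100% of genes whole within 0.02); 3 genes, none of them a member, had their fragments doubled to reach the totals. They served depth, the haemoglobin share and limma voom.

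Members and lists were chosen with earlier results of these data known. Named were all members, the other family genes (1 listed gene is not reported here), and of each list the most abundant, most positive and most negative gene tested; genes without overlap were added after their values were seen. Likeness was the highest Pearson correlation over 8 libraries. P-values measure the spread between these samples. Figures used matplotlib 3.10.9.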

Additional observations from a re-analysis of the deposited data

How the results depend on the processing

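The log2 fold changes of all 8 members stayed negative under all alternatives run. These were another pseudocount, other filters on low values, other scalings and each library left out. Limma was also run without trend, robust, with array weights, with a haemoglobin covariate and as voom. Lrp4 and Lrp12 were not tested at a mean FPKM of at least 5. In the main fit 70.2% of all genes tested were negative, and the share that stayed negative throughout was not counted. With the haemoglobin covariate 120 genes had an unadjusted limma p under 0.05, against 1981 in the main fit. The SE of Lrp1 was 0.36 with that covariate and 0.20 in the main fit. The scaling moved the median of all genes from -0.25 to -0.90 with TPM, -0.05 with median-of-ratios scaling, -0.08 with quantile normalization and 0.01 with haemoglobin genes left out of the total. TPM called 3288 genes and 6 of the 8 members, and each other scaling or fit on all 8 libraries called 0 of both. With a library left out 0 to 160 genes and 0 members were called, the 160 without saline replicate 4. Lrp1 ran from -1.27 to -1.12 with a library left out (limma adjusted p from 0.0582 to 0.534), and over all alternatives from -1.92 to -0.88 (adjusted p from 0.0408 to 1.00).

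Some related genes turned direction, none of them called, and the cause was not tested. Vps35 was at 0.041 with median-of-ratios scaling, 0.12 with haemoglobin genes left out and 0.064 with the covariate; Ccn2 at 0.13, 0.21 and 0.10 in these, and at 0.12 with array weights, 0.16 without FeCl3 replicate 1 and 0.64 without saline replicate 1 (range -0.75 to 0.64). Gga2 was at -0.46 with TPM, -0.12 with array weights, -0.41 with the covariate and -0.025 without saline replicate 1 (range with a library left out -0.025 to 0.51). Psenen and Clu were at -0.24 and -0.47 with TPM, Lpl at -0.26 without saline replicate 1 (range -0.26 to 3.11), Fdps at 0.035 without saline replicate 3 (range -0.92 to 0.035), and Lrp3 at 0.15 and 0.11 without FeCl3 replicate 3 and FeCl3 replicate 4 (range -0.77 to 0.15). No paired analysis was possible because the labels give no replicate numbers that pair FeCl3 with saline samples.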
